A study of Mus musculus with 12 samples.

Results

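The genes described here are 10 imprinted genes of a growth-regulating network: H19 (ENSMUSG00000000031), Igf2 (ENSMUSG00000048583), Cdkn1c (ENSMUSG00000037664), Dlk1 (ENSMUSG00000040856), Meg3 (ENSMUSG00000021268), Peg3 (ENSMUSG00000002265), Plagl1 (ENSMUSG00000019817), Mest (ENSMUSG00000051855), Ndn (ENSMUSG00000033585) and Grb10 (ENSMUSG00000020176). They were selected by gene ID, as 10 of the 56748 gene IDs in the deposited tables, and the choice was made from knowledge of the network together with earlier expression results of these same libraries. All differences between groups are therefore given as descriptions, and a gene is named as called only to say that its difference exceeded the spread between replicates in a fit over all genes. The libraries came from mouse mesenchymal stem cells of adipose tissue, which are stromal cells of fat, grown either attached in 2D or as 3D spheroids. All were kept in DMEM with fetal bovine serum and antibiotics, and the 4 groups are 2D 0h, 2D 24h, 3D 0h and 3D 24h, with 3 libraries each. The labels name no strain, sex, age, passage or drug, and they do not say how long spheroids had been forming at 0 h or whether replicates were separate cultures, so errors show the spread between libraries, which may be technical. The library totals lay between 10182600 and 17109600 expected counts. No pair of replicates matched within sampling noise (chi-square per degree of freedom at least 4.70). Markers of the labelled cell type and of other cell types were not analysed here, because the tables used do not pair the remaining gene IDs with names.

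Imprinted genes are transcribed mainly from the copy inherited from a given parent, and many of them set the growth of the embryo and of stem cell compartments. In this network H19, Cdkn1c, Meg3 and, in most tissues, Grb10 are transcribed from the maternal copy, and Igf2, Dlk1, Peg3, Plagl1, Mest and Ndn from the paternal copy. H19 and Igf2 are neighbours that share enhancers, and an insulator bound by CTCF on the maternal copy directs those enhancers to H19. Many of these genes are abundant in fetal tissue and fall after birth. The libraries measure total RNA of a gene and do not tell the parental copies apart. In such bulk libraries, fewer cells that express a gene and less RNA of it per cell cannot be told apart.

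By RefSeq, 5 of the 10 genes lie on mouse chromosome 7 (H19, Igf2, Cdkn1c, Peg3 and Ndn) and 2 on chromosome 12 (Dlk1 and Meg3), with Mest on chromosome 6, Plagl1 on chromosome 10 and Grb10 on chromosome 11. H19 RNA is also the precursor of miR-675, whose hairpin lies inside the gene, and Meg3 holds the hairpin of miR-770 on its own strand. Mature miR-1906 also lies within the span of Meg3 on that strand and is not shown. The mature sequences of miR-675 and miR-770 are shown because H19 and Meg3 are the network's noncoding RNAs and their levels varied between groups. They are given 5′ to 3′ from RefSeq on GRCm38.p6, with the seed, bases 2 to 8, in capitals. The microRNAs themselves were not measured by these libraries.
miR-675-5p (chr7:142577112-142577133, minus strand): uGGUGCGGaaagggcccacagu
miR-675-3p (chr7:142577078-142577099, minus strand): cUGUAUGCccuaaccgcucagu
miR-770-5p (chr12:109563710-109563731, plus strand): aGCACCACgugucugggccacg
miR-770-3p (chr12:109563744-109563765, plus strand): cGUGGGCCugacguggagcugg
All 4 seeds differ from each other.

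Dlk1 and Meg3, with 2 RefSeq entries between them on chromosome 12, are genes whose RNA levels went in opposite directions with time, as given further on, and their promoter windows are shown for that reason. Each window runs from 250 bases before to 50 bases after a RefSeq start, 5′ to 3′ on GRCm38.p6, which is not the build of the counts. Windows were searched on both strands for TATAAA, the core of the TATA box, and for GGGGCCCC, the core of the GC palindrome bound by Plagl1, and matches are in capitals.
Dlk1 (chr12:109452573-109452872, plus strand): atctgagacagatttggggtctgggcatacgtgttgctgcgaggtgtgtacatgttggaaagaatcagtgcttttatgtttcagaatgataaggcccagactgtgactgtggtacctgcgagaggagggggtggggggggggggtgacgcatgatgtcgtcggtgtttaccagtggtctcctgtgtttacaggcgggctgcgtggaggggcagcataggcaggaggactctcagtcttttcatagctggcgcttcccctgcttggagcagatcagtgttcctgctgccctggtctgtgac
Meg3, first start (chr12:109540746-109541045, plus strand): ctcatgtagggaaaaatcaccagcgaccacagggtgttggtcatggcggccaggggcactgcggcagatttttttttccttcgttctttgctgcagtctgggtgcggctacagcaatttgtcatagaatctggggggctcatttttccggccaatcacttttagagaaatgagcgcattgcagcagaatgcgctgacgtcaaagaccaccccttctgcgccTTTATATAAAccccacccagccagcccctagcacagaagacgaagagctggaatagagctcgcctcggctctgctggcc
The Meg3 window held TATAAA once on each strand, in overlapping positions, and the Dlk1 window held neither motif. RefSeq gave 15 windows for 8 of the 10 genes; H19 and Cdkn1c were not matched. TATAAA was found in 1 of the 15 windows, the first of Meg3, and in 13.6% of all 32851 windows in the table. GGGGCCCC was found in 1 of the 15, that of Peg3, and in 1.08% of all windows. The 15 windows held between 1 and 45 CpG dinucleotides, with a median of 13 against 7 over all windows. The most were at the first start of Grb10 and the fewest at the second start of Meg3.

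Per length, the 10 genes covered a wide range of levels. TPM, the authors' abundance per gene length and library size, allows levels of different genes to be set side by side. Meg3 was the most abundant in each of the 4 groups, at 266 to 740 TPM as group means, above at least 95.0% of the 14338 genes tested. Ndn, Grb10 and Dlk1 followed, at 57.1 to 68.1, 46.6 to 114 and 19.2 to 72.9 TPM. H19 spanned 1.88 to 45.0 TPM and Cdkn1c 3.69 to 26.6 TPM. Peg3, Plagl1, Mest and Igf2 had group means of 1.38 to 2.45, 1.23 to 2.03, 0.683 to 3.33 and 0.783 to 1.92 TPM. Counts were few for the last pair: Igf2 had 4 to 14 counts in a library and Mest 3.37 to 30.2.

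**Figure D1:**
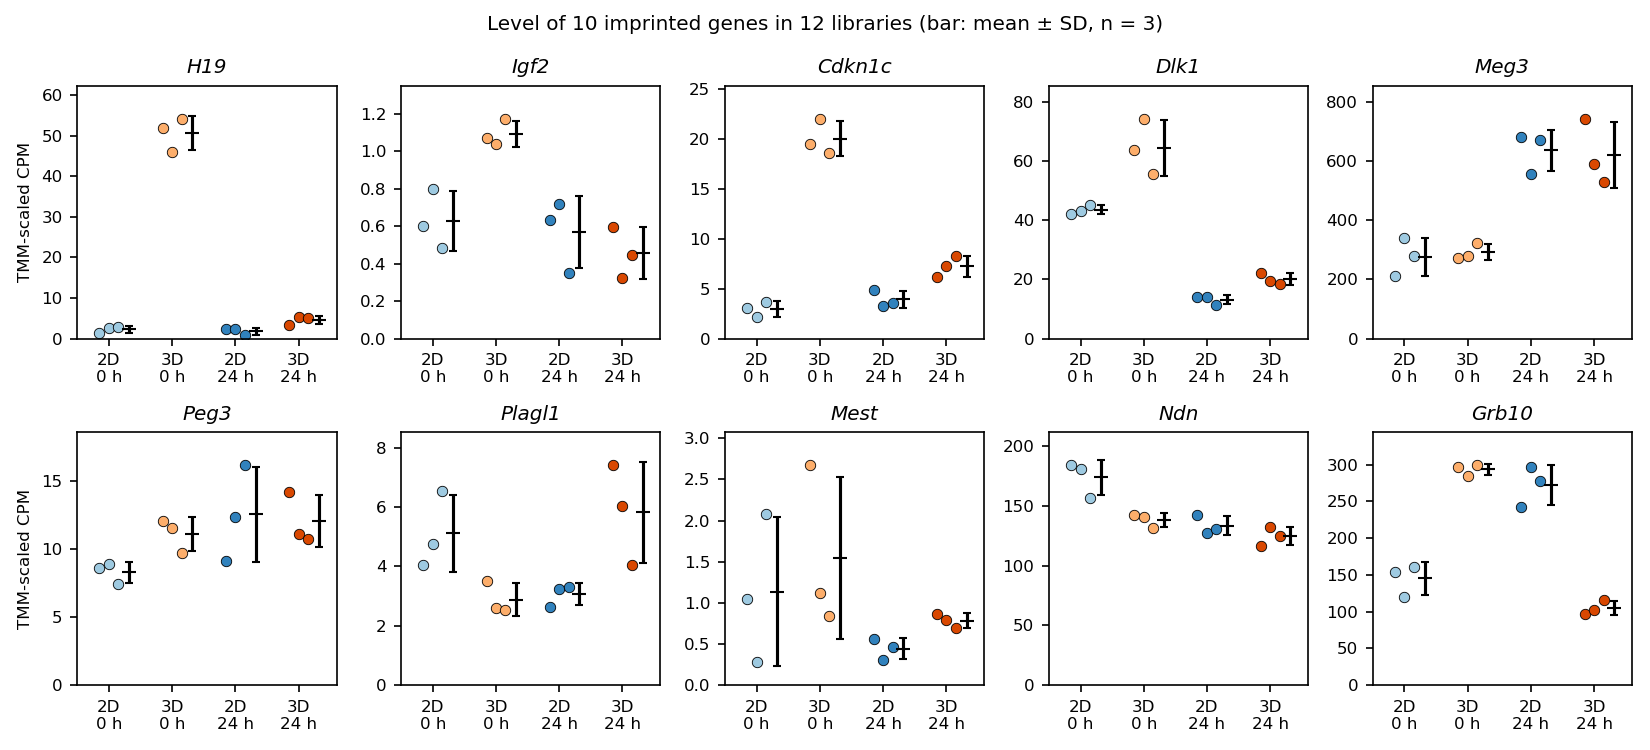
Level of each of the 10 genes in each of the 12 libraries, as TMM-scaled CPM (vertical axes, each from 0), by culture and time (horizontal axes); points are libraries and bars give the mean and SD of 3. H19 and Cdkn1c stand highest in spheroids at 0 h, Dlk1 falls and Meg3 rises with time in both cultures, and Grb10 is high in spheroids at 0 h and in 2D cells at 24 h.

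Spheroids at 0 h stood out by H19, the noncoding RNA that neighbours Igf2. Its levels in 2D at 0 h were 1.37, 2.48 and 2.83 CPM in replicates 1, 2 and 3 (16, 34 and 41 counts), where CPM, the usual count relative to the library's total, was scaled by TMM. In 3D at 0 h they were 51.9, 46.1 and 54.2 CPM (533, 621 and 646 counts). All 3 spheroid libraries therefore lay far above all 2D libraries, with a mean of 2.23 ± 0.758 CPM for 2D and of 50.7 ± 4.15 CPM for spheroids (SD, n = 3), a ratio of 22.8. The fitted log2 fold change was 4.48 ± 0.29 (SE), and 89 of the 14338 genes tested had a higher one. At 24 h H19 was at 2.27, 2.25 and 0.844 CPM in 2D, and at 3.32, 5.21 and 5.15 CPM in 3D. The groups did not overlap at 24 h either, but the ratio of the means was 2.55 and the log2 fold change 1.37 ± 0.32 (SE). Within spheroids the mean fell to 4.56 ± 1.08 CPM, an 11.1-fold drop with a log2 fold change of -3.49 ± 0.27 (SE). Over the same time in 2D the libraries overlapped and no change was called (log2 fold change -0.38 ± 0.35, SE). From lowest to highest, the means ran 2D 24h, 2D 0h, 3D 24h and 3D 0h, and only the first pair of neighbours in that order overlapped. With deposited TPM the ratio of 3D to 2D was 22.1 at 0 h and 2.01 at 24 h. On the log2(TPM + 1) scale, which understates changes of low genes, the difference at 24 h was 0.77 and was still called.

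Cdkn1c, which encodes the cyclin-dependent kinase inhibitor p57, was likewise highest in spheroids at 0 h. At 0 h it was at 3.09, 2.11 and 3.65 CPM in 2D and at 19.5, 22.0 and 18.6 CPM in 3D. At 24 h it was at 4.89, 3.27 and 3.59 CPM in 2D and at 6.20, 7.25 and 8.29 CPM in 3D. Spheroid libraries thus exceeded 2D libraries at either time without overlap, by a ratio of means of 6.78 at 0 h (log2 fold change 2.76 ± 0.24, SE) and of 1.85 at 24 h (0.89 ± 0.24, SE). In 3D it fell 2.76-fold over 24 h (log2 fold change -1.47 ± 0.22, SE), while the 2D libraries of the 2 times overlapped and were not called. Over the 12 libraries the log2 CPM of Cdkn1c and H19 correlated at Pearson's r = 0.932. By that measure Cdkn1c came at rank 66 among 10029 genes whose highest group mean reached 10 CPM. The 12 points fall in 4 groups and share their libraries, so r is a description. The other genes of the network had r between -0.416 (Meg3) and 0.732 (Igf2, which had at most 14 counts). The gene most like H19 by r, ENSMUSG00000038936 (r = 0.976), had a much smaller range, from 53.3 ± 2.64 CPM in 2D at 24 h to 92.8 ± 3.23 CPM in 3D at 0 h (SD, n = 3). The next, ENSMUSG00000019768 (r = 0.975), was at 44.6 ± 2.28 CPM in 3D at 0 h and at 7.0 to 8.91 CPM as means of the other groups. Likeness by r therefore covers the relative spacing of the libraries on the log2 scale and not the size of the change.

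Grb10, an adaptor protein that restrains signalling by the insulin and IGF1 receptors, crossed between the times. In 2D it was at 154, 120 and 161 CPM at 0 h and at 243, 297 and 278 CPM at 24 h. In 3D it was at 297, 285 and 299 CPM at 0 h and at 96.6, 102 and 115 CPM at 24 h. Spheroid libraries were thus higher without overlap at 0 h, by a ratio of 2.03 (log2 fold change 1.02 ± 0.12, SE), and lower without overlap at 24 h. There 2D exceeded 3D by a ratio of 2.60 (log2 fold change -1.38 ± 0.12, SE). Over 24 h Grb10 rose in 2D (log2 fold change 0.91 ± 0.12, SE) and fell in 3D (-1.49 ± 0.12, SE). Its means ran from 105 CPM in 3D at 24 h through 145 CPM (2D 0h) and 272 CPM (2D 24h) to 294 CPM in spheroids at 0 h. Only the last pair overlapped by CPM. TPM kept this order of means, at 46.6, 52.2, 106 and 114 TPM. By TPM the first pair overlapped as well, at 40.5 to 53.2 TPM in 3D at 24 h and 48.1 to 59.0 TPM in 2D at 0 h.

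Igf2, the growth factor of the network that signals through the IGF1 receptor, was barely detected. At 0 h it had 7, 11 and 7 counts in 2D and 11, 14 and 14 in 3D. At 24 h it had 7, 8 and 5 counts in 2D and 11, 4 and 6 in 3D. Only the 3D libraries at 0 h passed the filter on low counts, so it entered the fit through its highest group. It reached 1.09 ± 0.0703 CPM there against 0.628 ± 0.162 CPM in 2D at 0 h (SD, n = 3), with no overlap. None of the comparisons called it, and the log2 fold change at 0 h was 0.79 ± 0.55 (SE). By TPM the cultures overlapped at 0 h, and the 2D libraries with 7 counts (replicate 1) and 11 counts were at 0.530 and 3.28 TPM. In 3D at 0 h H19 stood at 45.0 ± 5.07 and Igf2 at 1.92 ± 1.22 TPM (SD, n = 3), so the per-length level of H19 was far above that of its neighbour. In 2D at 0 h both were low, with means of 2.04 TPM for H19 and 1.65 TPM for Igf2.

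Dlk1, a transmembrane protein that holds back the differentiation of fat cell precursors, fell with time in both cultures. In 2D it was at 42.2, 43.2 and 45.1 CPM at 0 h and at 14.1, 14.0 and 11.3 CPM at 24 h. In 3D it was at 63.6, 74.2 and 55.4 CPM at 0 h and at 22.2, 19.4 and 18.5 CPM at 24 h. The drop was 3.31-fold in 2D (log2 fold change -1.73 ± 0.14, SE) and 3.21-fold in 3D (-1.68 ± 0.14, SE), with no overlap in either. In 2D, 255 of the 14338 genes had a lower log2 fold change, and in 3D 956 did. Spheroids were above 2D cells at either time without overlap, by a ratio of 1.48 at 0 h (0.57 ± 0.13, SE) and of 1.53 at 24 h (0.62 ± 0.15, SE). With TPM the ratio at 24 h was 1.26, the libraries overlapped, and the difference on the log2(TPM + 1) scale (0.32) was not called.

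Meg3, the long noncoding RNA transcribed next to Dlk1 from the other parental copy, went the opposite way with time. Its levels in 2D were 210, 340 and 278 CPM at 0 h and 683, 556 and 671 CPM at 24 h. In 3D they were 273, 279 and 323 CPM at 0 h and 743, 591 and 529 CPM at 24 h. Meg3 rose 2.31-fold in 2D (log2 fold change 1.20 ± 0.16, SE) and 2.13-fold in 3D (1.09 ± 0.16, SE), and in each culture every library at 24 h exceeded every library at 0 h. The cultures overlapped at both times, with log2 fold changes of 3D against 2D of 0.08 ± 0.16 at 0 h and -0.04 ± 0.16 at 24 h (SE). Its expected counts were not whole in any of the 12 libraries. How these fractions arose was not tested, and its level is uncertain to that extent. The test that compares the time courses of Dlk1 and Meg3 with each other was not run, and their values are set side by side only.

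The counts put Plagl1, a zinc finger factor known to act on H19, Igf2, Cdkn1c and Dlk1, lower in spheroids at 0 h and higher at 24 h. Its levels at 0 h were 4.04, 4.74 and 6.55 CPM in 2D and 3.50, 2.60 and 2.52 CPM in 3D. At 24 h it was at 2.63, 3.23 and 3.31 CPM in 2D and at 7.40, 6.03 and 4.03 CPM in 3D. Neither time showed overlap, and the log2 fold changes were -0.84 ± 0.31 at 0 h and 0.93 ± 0.30 at 24 h (SE). In 3D it rose over 24 h (1.03 ± 0.31, SE), and in 2D its lower level at 24 h was not called (-0.74 ± 0.30, SE). Each of these calls of Plagl1 was lost in at least 1 fit without a single library, and such a fit also has fewer replicates. At 0 h the call ended without 2D replicate 3 (-0.58), without 3D replicate 2 (-0.75) and without 3D replicate 3 (-0.75). It ended at 24 h without 2D replicate 1 (0.88), 3D replicate 1 (0.74) or 3D replicate 2 (0.91), and in the 3D time course without 3D 24 h replicate 1 (0.83). The call at 0 h also ended with no expression filter (-0.81), with only these 2 groups (-0.84) and under other scalings (-0.74 and -0.72). On the log2(TPM + 1) scale none of these was called, at -0.32, 0.40 and 0.44.

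Peg3, another zinc finger factor, and Ndn, which encodes necdin, a protein that restrains cell growth, had calls that were lost under several alternatives. Peg3 ranged from 7.44 to 16.2 CPM over the 12 libraries, and its only call was a rise in 2D from 8.31 ± 0.766 to 12.6 ± 3.52 CPM (SD, n = 3; log2 fold change 0.60 ± 0.21, SE). That call ended without 2D 0 h replicate 1 (0.62) or 3 (0.55) and without 2D 24 h replicate 2 (0.62) or 3 (0.38). It also ended with only these 2 groups in the fit (0.63), on the log2(TPM + 1) scale with or without the filter (0.52) and on the log2(TPM + 0.1) scale (0.75). Ndn ranged from 117 to 184 CPM, and its highest group was 2D at 0 h, at 184, 181 and 157 CPM. All libraries of the other groups lay below these. It was lower in 3D at 0 h (log2 fold change -0.33 ± 0.10, SE) and lower at 24 h in 2D (-0.38 ± 0.10, SE). The call at 0 h ended without 2D 0 h replicate 1 (-0.28), without 3D 0 h replicate 3 (-0.30), with scaling by library totals (-0.23), with upper-quartile scaling (-0.21) and with no expression filter (-0.30). On the log2(TPM + 1) scale neither Ndn difference was called over the filtered genes, at -0.18 and -0.16, while over all genes without a filter the one at 0 h was called.

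Mest, a protein of hydrolase fold whose level follows fat expansion in mice, was near the limit of detection and was called in none of the comparisons. At 0 h it had 12.2, 3.78 and 30.2 counts in 2D and 27.4, 15.1 and 10.0 counts in 3D. At 24 h it had 6.18, 3.37 and 6.50 counts in 2D and 15.9, 9.75 and 9.30 counts in 3D. Counts of the 2 cultures overlapped at 0 h, and at 24 h the 3D libraries lay above the 2D libraries with a log2 fold change of 0.92 ± 0.73 (SE). In 11 of the 12 libraries its counts were not whole. Of the 3 fits to TPM, only log2(TPM + 1) over the filtered genes called it higher in 3D at 0 h (0.93). That fit (-1.06) and log2(TPM + 0.1) (-1.56) called it lower at 24 h within 3D, and the fit without a filter called neither. Without 2D 0 h replicate 2 the lower level at 24 h in 2D was called (-1.90).

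**Figure D2:**
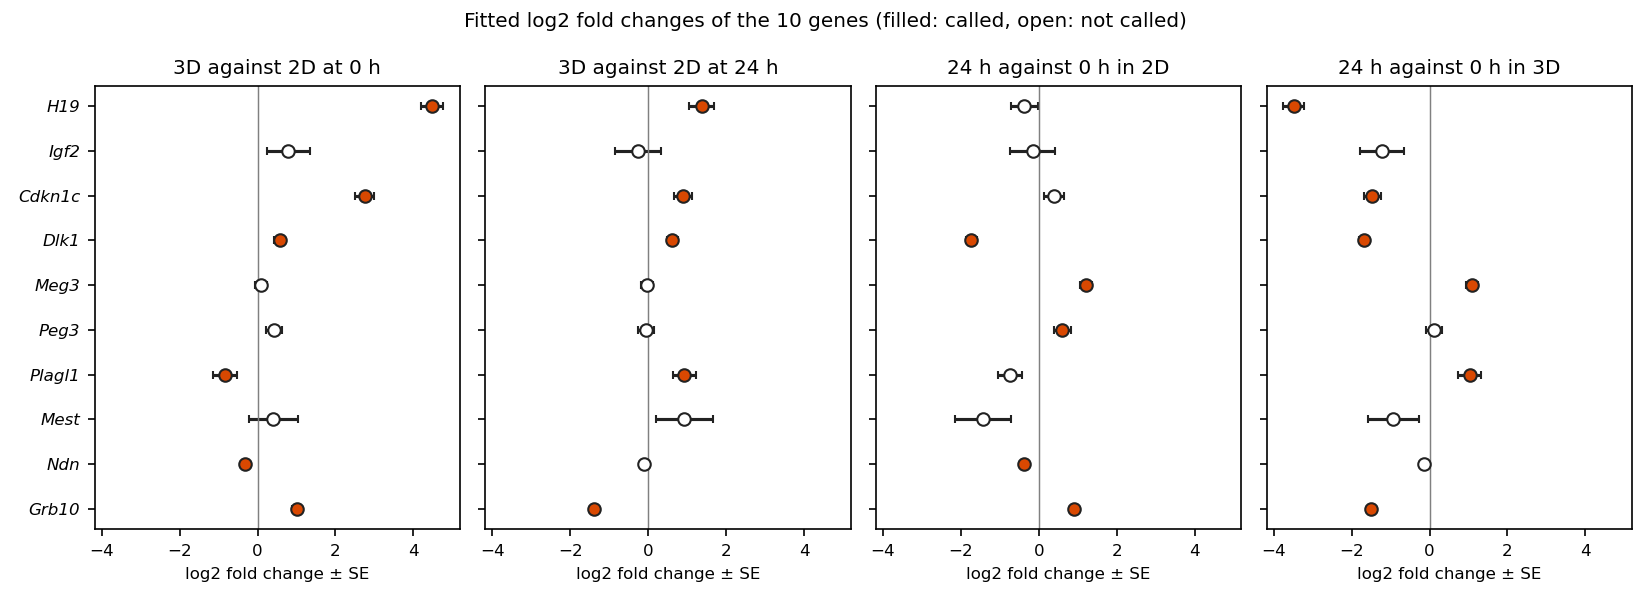
Fitted log2 fold change of each gene (horizontal axis, ± SE) in the 4 comparisons of 2 groups; filled points were called and open points were not. H19 has the highest value, 4.48, in 3D against 2D at 0 h, and Grb10 lies on opposite sides of 0 at 0 h (1.02) and 24 h (-1.38).

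Counted over the 10 genes, all of which passed the filter on low counts, the fit called 4 higher in 3D at 0 h (H19, Cdkn1c, Dlk1 and Grb10) and 2 lower (Plagl1 and Ndn). Over all genes tested, 23.1% were called higher and 22.7% lower in that comparison (edgeR quasi-likelihood test, Benjamini-Hochberg adjusted p under 0.05). At 24 h, 4 were higher in 3D (H19, Cdkn1c, Dlk1 and Plagl1) and 1 was lower (Grb10), where 19.6% and 22.8% of all genes were. Over 24 h in 2D, Meg3, Peg3 and Grb10 rose and Dlk1 and Ndn fell, against 17.4% and 17.0% of all genes. In 3D, Meg3 and Plagl1 rose and H19, Cdkn1c, Dlk1 and Grb10 fell, against 23.8% and 24.7%. Since the genes were chosen with these results known, nothing is read from the counts. The comparisons that share a group, such as 3D against 2D at 0 h and 24 h against 0 h in 3D, also share its libraries. The all-gene shares moved with the scaling, to 28.1% higher and 18.2% lower at 0 h with upper-quartile scaling and to 25.4% and 18.9% at 24 h with library totals. With limma on log2(TPM + 1) they were 25.4% and 15.5% at 0 h, and over 24 h in 2D 20.2% higher and 8.77% lower.

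The genes did not move as a block. The median log2 fold change of the 10 was 0.49 at 0 h, against 0.02 over all genes, and 0.29 at 24 h, against 0.00. Over time it was -0.27 in 2D, against 0.02 over all genes, and -1.07 in 3D, against 0.00. The median in 3D lay between Igf2 (-1.22 ± 0.56, SE) and Mest (-0.93 ± 0.65, SE), which had few counts and were not called. As the genes were chosen with these results known, nothing is read from the medians. Of the 4 maternally expressed genes, 3 were called higher in 3D at 0 h and 0 lower, and of the 6 paternally expressed genes 1 was higher and 2 lower, beside 23.1% and 22.7% of all genes. At 24 h, 2 maternally expressed genes were higher and 1 lower, and 2 paternally expressed genes were higher and 0 lower, beside 19.6% and 22.8%. Over time in 2D the maternally expressed genes had 2 rises and 0 drops and the paternally expressed genes 1 rise and 2 drops, beside 17.4% and 17.0%. In 3D they had 1 rise and 3 drops and 1 rise and 1 drop, beside 23.8% and 24.7%. No test of a difference between the parental copies was made. A pattern like that of H19, at least 2-fold higher in 3D at 0 h and at least 2-fold lower at 24 h than at 0 h in 3D, both called, was shared by 623 of the 14338 genes (4.35%). H19 met it by definition, and Cdkn1c and Grb10 also showed it. Grb10 was otherwise unlike H19, with r = 0.383 and a lower level in 3D than in 2D at 24 h (log2 fold change -1.38). These genes were chosen with the results known, so they are not set against the share of all genes.

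**Figure D3:**
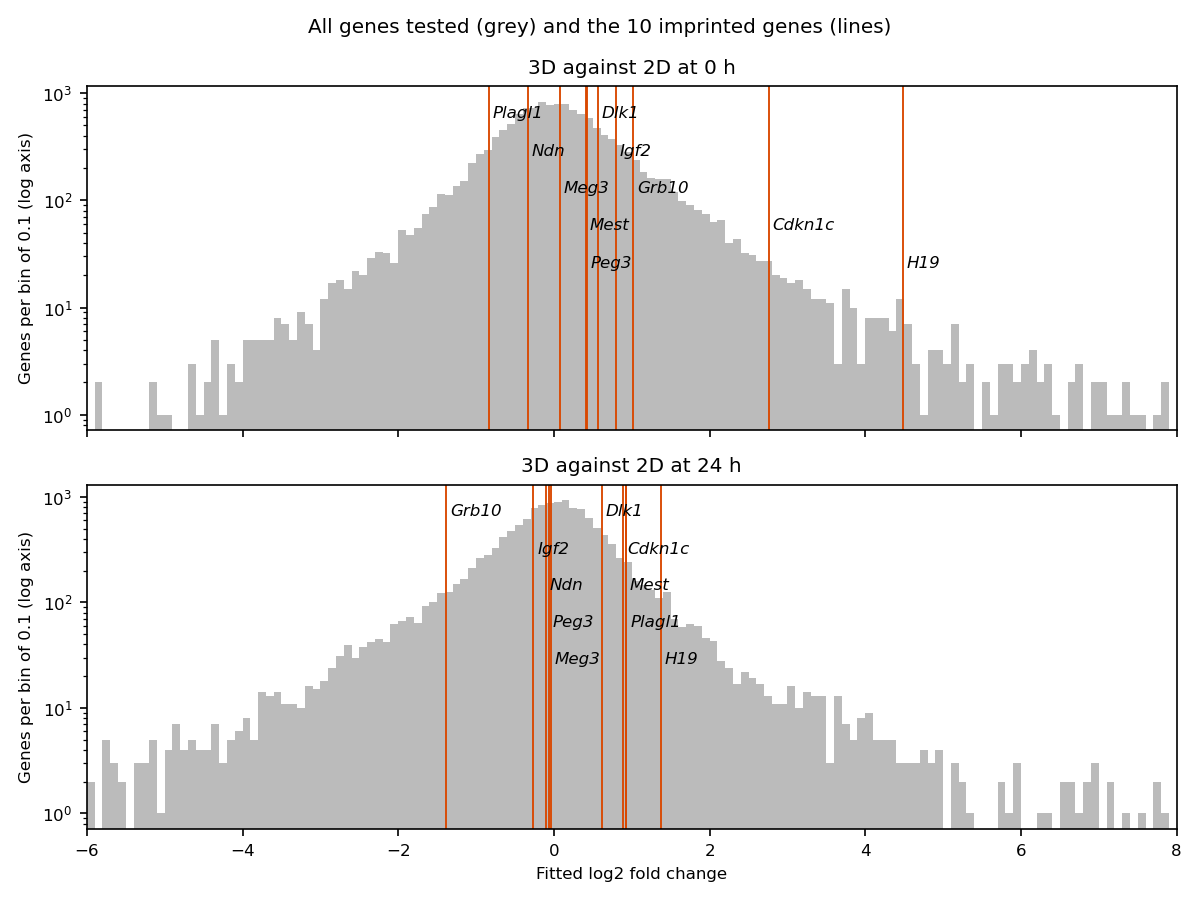
Distribution of fitted log2 fold changes of all 14338 genes tested (grey, genes per bin on a log axis) for 3D against 2D at 0 h and 24 h, with the 10 genes as vertical lines. At 0 h H19 (4.48) and Cdkn1c (2.76) lie in the right tail; at 24 h the lines run from -1.38 (Grb10) to 1.37 (H19), and 15 and 26 genes lie left and 12 and 5 right of the drawn range at 0 h and 24 h.

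The difference between 3D and 2D depended on time for 4 of the 10 genes. The fitted change at 24 h minus that at 0 h was -3.11 ± 0.44 for H19, -1.87 ± 0.34 for Cdkn1c and -2.40 ± 0.17 for Grb10, and 1.77 ± 0.43 for Plagl1 (log2, SE). These are 3 lower and 1 higher, where 20.5% and 18.7% of all genes were. For Dlk1 the difference was 0.05 ± 0.20 and for Meg3 -0.12 ± 0.22 (log2, SE), and neither was called. For Ndn and Peg3 it was 0.23 ± 0.14 and -0.48 ± 0.30, and for Igf2 and Mest -1.05 ± 0.81 and 0.51 ± 0.97 (log2, SE), with none called.

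**Figure D4:**
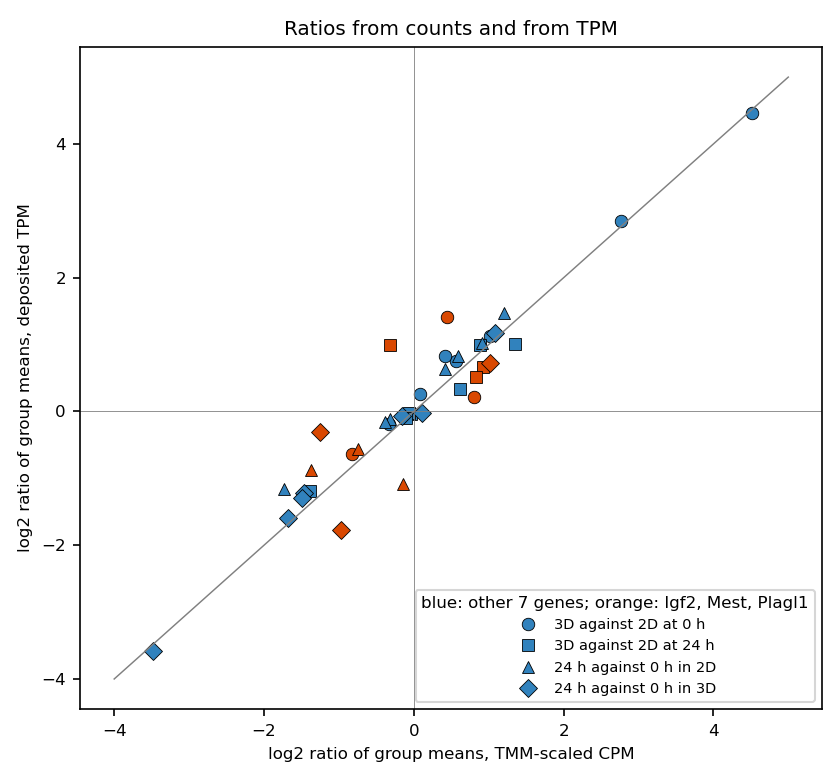
Ratio of group means from the deposited TPM (vertical axis, log2) against that from TMM-scaled counts (horizontal axis, log2) for each gene in the 4 comparisons of 2 groups, with the line of equality in grey. The 7 genes with more counts (blue) stay within 0.562 of the line, where the farthest is Dlk1 over 24 h in 2D. Igf2, Mest and Plagl1 (orange) have the fewest counts in all. The largest departure among these 3, 1.31, is that of Igf2 in 3D against 2D at 24 h. Plagl1 stays closer to the line than Dlk1, with its widest gap over 24 h in 3D (a ratio of 2.03 by counts and 1.65 by TPM).

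Counts and TPM differed most for Igf2 and Mest, which had the fewest counts. The gap did not follow counts beyond these. Dlk1 over 24 h in 2D had a ratio of 0.302 by CPM and of 0.446 by TPM. Plagl1, with fewer counts than Dlk1, had smaller gaps. The quotient of count and TPM was divided in each library by a median factor over genes with many counts. This gives a relative transcript length, which was set to a geometric mean of 1 over the 12 libraries for each gene. Gaps between CPM and TPM that come from scaling of the libraries do not show in it. The relative length stayed between 0.993 and 1.01 for Ndn and between 0.963 and 1.06 for Meg3. For H19 it ran from 0.557, in 2D 0 h replicate 1 with 16 counts, to 1.24, and for Dlk1 from 0.717 to 1.17. For Igf2 it ran from 0.417 to 1.93 and for Mest from 0.244 to 2.21. The 2 measures of Igf2 lay on opposite sides of equality at 24 h, with a ratio of 3D to 2D of 0.805 by CPM and of 1.99 by TPM, and the libraries overlapped in both. Those of Peg3 did so over 24 h in 3D, at 1.08 by CPM and 0.985 by TPM, also with overlap in both.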

How the data were processed

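RNA of 12 libraries (4 groups of 3) was sequenced. Per the labels' protocols, RNA was handled with the SMART-seq v4 low-input kit and libraries with a stranded TruSeq mRNA kit. FastQC 0.11.9, STAR, RSEM and the build GRCm39 are listed, with no roles, per the submitters' processing notes. The annotation, the other versions and the settings were not stated in them. Expected counts, estimated per gene and not always whole, were deposited by the authors along with abundance as log2(TPM + 1), in which 1 is the pseudocount on the log2 scale. Columns headed day 0 and day 1 were taken as 0 h and 24 h. Counts were rounded to whole numbers for the fit.

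In R 4.3.3 with edgeR 4.0.16, the expression filter (minimum count 10) kept 14338 genes. TMM scaling and a quasi-likelihood fit with 1 term per group (8 residual degrees of freedom) followed, over all genes and libraries, with calls at a Benjamini-Hochberg adjusted p under 0.05. Steps were also run on simulated data in which few genes changed, in 1 group only and equally up and down. That run does not test the scaling where many genes change. Alternatives used DESeq2 1.42.0, limma 3.58.1, other scalings and filters, a replicate block and each library left out. The genes and lists were chosen with earlier results of these data known; all 10 genes are named, with the genes most like H19 by correlation. Further lists of gene symbols were not analysed here, since the tables used do not pair the IDs with names.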

Additional observations from a re-analysis of the deposited data

Results flagged for a closer look

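The 3D against 2D difference changed between 0 h and 24 h for 4 of the 10 genes by the fitted test of that difference (edgeR quasi-likelihood), in genes chosen with these results known. Over all genes tested that test called 18.7% higher and 20.5% lower, so 4 of 10 is near the background share. The log2 difference, 24 h minus 0 h, was -3.11 for H19. It was -1.87 for Cdkn1c and -2.40 for Grb10. For Plagl1 it was 1.77, and on the log2(TPM + 1) scale it was 0.73 and not called.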

How the results depend on the processing

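Of the 410 values of called genes recomputed under an alternative, none changed sign, 364 kept their call and 46 lost it. Of the 386 values not called, 38 changed sign and 5 became called. The calls of H19, Cdkn1c, Grb10 and Meg3 held under each alternative that was run, as did those of Dlk1 except in 3D against 2D at 24 h with TPM values. With limma on log2(TPM + 1), on log2(TPM + 0.1) or without a filter, 3 of the 10 genes were called in 3D against 2D at 24 h and 3 over 24 h in 2D, where the counts gave 5 each. Without a filter, limma on log2(TPM + 1) called 3111 genes over 24 h in 2D, against 4928 by counts. Without single libraries, 4 to 6 of the 10 genes were called at 0 h, 4 to 5 at 24 h, 4 to 6 over time in 2D, 5 to 6 over time in 3D and 4 for the difference between the times. Over all genes these calls were 5612 to 6509, 5027 to 5921, 3424 to 5057, 5938 to 6348 and 4857 to 5870. Replicate numbers did not pair the libraries: deviations of same-numbered libraries correlated at -0.23 to 0.052. With the replicate block, calls among the 10 went from 6 to 5 at 0 h (Plagl1 lost, -0.85) and from 5 to 4 over 24 h in 2D (Peg3 lost, 0.61), and the block changed no other call among them. Over all genes the block gave 6128, 5681, 4332, 6523 and 5133 calls in the same order. Scaling by library totals moved the median log2 fold change of all genes to 0.12 at both times and upper-quartile scaling moved it to 0.14 at 0 h. With upper-quartile scaling Peg3 was called higher in 3D at 0 h (0.54), and Plagl1 there lost its call under either scaling (-0.74 and -0.72). With no expression filter Plagl1 and Ndn lost their calls at 0 h (-0.81 and -0.30), which left 4 of the 10 genes called there. Counts of 4 to 14 for Igf2 and of 3.37 to 30.2 for Mest limit what can be seen of them. The planned counts over other imprinted genes were not run, because the gene IDs could not be named. Cause was not tested for any of these changes.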
